A study of Mus musculus with 2 samples.

Results

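The integrated stress response genes were followed here as 10 of the 31053 genes in the deposited table: Atf4, Atf5, Ddit3, Chac1, Asns, Trib3, Nupr1, Ifrd1, Sesn2 and Ddit4. They were chosen by name as a pathway, from earlier results on these cells that had placed Chac1 beside the interferon gene Ifit3. The rule takes their raw UMIs (unique molecular identifiers, each standing for 1 captured RNA molecule) in each library, in bands of cells set by keratin RNA, and in corneal cells with and without Ifit3 or Mki67. Those values are given as a description, with no test. All 10 genes were in the table under the listed symbols.

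CycB1-GFP mice carry a reporter whose green fluorescence marks cells with Cyclin B1, and live GFP-positive cells of their corneal epithelium were the only ones collected. There was 1 group with 2 replicates and no comparison group, so cells without the reporter signal were not measured. The 2 libraries, named here by the number at the end of their barcodes, held 3187 and 3001 cells after filtering, with medians of 5571 and 5886 UMIs per cell. The sex, age and number of the mice in each library are not given in the labels used here, and the libraries were 10x Genomics 3' v3 preparations. Cells were placed by the share of Krt12 in the sum of Krt12 and Krt15 UMIs. Krt12 is the keratin of the differentiated corneal epithelium and Krt15 a keratin of basal and limbal cells. A share under 0.4 was called Krt15-dominant (663 and 959 cells in libraries 1 and 2), a share above 0.8 Krt12-dominant (2304 and 1821 cells), and the rest mixed (161 and 164 cells). Cells with fewer than 5 UMIs of both keratins (59 and 57) were placed in no band. The libraries shared 4 barcode sequences among the kept cells. In the Krt12-dominant cells all 5 corneal epithelium markers were detected. They summed to 22658 and 30186 CPM (UMIs of a gene per 1000000 UMIs of the same cells). Krt12, which helps to set the band, made up 14423 and 18489 CPM of that. All 5 basal and limbal markers were detected there too, at 13066 and 10134 CPM. The immune list summed to 0.361 and 1.82 CPM, with Lyz2, Tyrobp and Fcer1g at 0. Conjunctival markers summed to 1017 and 1867 CPM in Krt15-dominant cells, against 112 and 109 CPM in Krt12-dominant cells. The Krt15-dominant band is therefore not read as basal and limbal cells alone.

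The integrated stress response is the path by which a cell slows general protein synthesis under strain. Several kinases, each sensing another stress such as amino acid shortage, misfolded protein in the endoplasmic reticulum, double-stranded RNA or haem lack, phosphorylate the initiation factor eIF2alpha, and the mRNAs of a few proteins such as ATF4 are then translated better. ATF4 enters the nucleus and switches on genes for amino acid supply, redox balance, feedback and, when stress lasts, cell death. ATF4 itself is controlled mainly at translation, so the level of Atf4 RNA is only part of its activity.

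ATF4 is known to bind, with a C/EBP partner, a composite site whose core reads TGATGNAA. That core was searched on both strands of the 250 bases before the RefSeq start of each gene, together with the related TGACGCAA and with the core of the interferon-stimulated response element, read as GAAA, any 2 bases and GAAA again. All 10 genes had a RefSeq promoter entry on GRCm38.p6, and Atf5 had 2 entries. TGATGNAA was present in the windows of Chac1, Asns and Nupr1, against 3.45% of 32851 promoter entries searched in the same way. TGACGCAA was present in the window of Chac1 alone among the 10, against 0.438% of all entries. The interferon core was in 0 of the 10 and in 2.98% of all entries. A match describes the letters in these windows and is neither a bound site nor a cause. The stretches that hold the matches are shown 5′ to 3′ on the gene's strand because 3 of the genes described below carry them. Capitals mark the matches, and TTGCATCA is TGATGCAA read from the opposite strand. The Chac1 stretch runs from 250 to 14 bases before the RefSeq start (chr2:119350992-119351228, plus strand) and lies in no annotated exon of the gene. For Asns (chr6:7693214-7693243, minus strand) and Nupr1 (chr7:126625562-126625591, minus strand) the match lies inside an exon of another annotated transcript, so only 30 bases around it are given.
Chac1: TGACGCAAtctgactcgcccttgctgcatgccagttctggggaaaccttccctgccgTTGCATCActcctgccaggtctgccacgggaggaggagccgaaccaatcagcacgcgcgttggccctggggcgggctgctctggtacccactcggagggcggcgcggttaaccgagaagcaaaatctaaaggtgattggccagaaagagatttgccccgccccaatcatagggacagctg
Asns: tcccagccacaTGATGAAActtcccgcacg
Nupr1: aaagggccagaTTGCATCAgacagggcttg

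Between the libraries the 10 genes differed over a wide range. In Krt12-dominant cells, Chac1, Trib3 and Nupr1 were furthest apart, Asns, Atf5, Sesn2 and Ifrd1 were higher in library 2 by smaller ratios, and Ddit4 was lower. The intervals of Atf4 and Ddit3, which stand above the others in the pathway, included equal levels. The summed level of the 10 genes was 343 CPM in library 1 and 410.2 CPM in library 2, a ratio of 1.20 (95% interval 1.15 to 1.25). Intervals here and below are exact and cover counting error only. In cells without an Ifit3 UMI the sums were 343 and 348 CPM, a ratio of 1.01 (0.969 to 1.06). With 1 library on each side there is no replicate behind a ratio, and a difference between libraries cannot be told apart from one between mice or preparations.

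Atf4, the central transcription factor, lies on chromosome 15 at 80255184 to 80257541 (plus strand, GENCODE M21 on GRCm38, as for the positions below). Its Krt12-dominant level was 177 CPM (2451 UMIs) in library 1 and 172 CPM (1981 UMIs) in library 2, a ratio of 0.969 (0.913 to 1.03). Atf5, a related factor controlled in the same way and linked to the mitochondrial stress response (chromosome 7, 44812256 to 44816658, minus strand), stood at 26.1 and 35.3 CPM, a ratio of 1.35 (1.17 to 1.56). Ddit3 encodes CHOP, the factor of prolonged stress (chromosome 10, 127290774 to 127296288, plus strand). It stood at 10.4 and 11.8 CPM, a ratio of 1.13 (0.889 to 1.44). The annotation holds another gene on the same strand inside Ddit3, which had 0 UMIs in the kept cells of both libraries. How reads shared by the pair were counted is not given in the sources used here, so the Ddit3 level is uncertain.

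Among the genes that ATF4 drives, the metabolic ones differed from each other. Chac1 encodes an enzyme that breaks down glutathione (chromosome 2, 119351229 to 119354381, plus strand). Its Krt12-dominant cells held 15 UMIs in library 1 (1.08 CPM, interval 0.606 to 1.79) and 170 UMIs in library 2 (14.7 CPM, 12.6 to 17.1), a ratio of 13.6 (8.01 to 24.8). Asns, asparagine synthetase (chromosome 6, 7675169 to 7693254, minus strand), stood at 21.2 CPM (294 UMIs) and 30.5 CPM (352 UMIs), a ratio of 1.44 (1.23 to 1.68). Both were higher in library 2, and the interval of Chac1 lay wholly above that of Asns.

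Trib3, a pseudokinase that dampens ATF4 and CHOP activity (chromosome 2, 152337422 to 152344032, minus strand), behaved like Chac1. It had 13 UMIs in library 1 (0.939 CPM) and 135 UMIs in library 2 (11.7 CPM), a ratio of 12.5 (7.04 to 24.0). Nupr1, a small stress-induced chromatin protein (chromosome 7, 126623249 to 126630861, minus strand), stood at 12.1 CPM (167 UMIs) and 29.5 CPM (341 UMIs), a ratio of 2.45 (2.03 to 2.96). Ifrd1, a transcriptional coregulator whose mRNA responds to stress (chromosome 12, 40201567 to 40248504, minus strand), was at 75.7 and 88.0 CPM, a ratio of 1.16 (1.07 to 1.27).

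The 2 inhibitors of mTORC1, the growth kinase complex, went opposite ways. Sesn2, a leucine sensor that ATF4 induces (chromosome 4, 132492032 to 132510501, minus strand), stood at 4.91 and 8.31 CPM in libraries 1 and 2, a ratio of 1.69 (1.23 to 2.35). Ddit4, which encodes REDD1 and also answers to hypoxia and glucocorticoids (chromosome 10, 59949669 to 59951834, minus strand), stood at 13.6 and 8.75 CPM, a ratio of 0.644 (0.501 to 0.825). Of the 5 members that reached 20 CPM in either library, Nupr1 was at least 2-fold higher in library 2 and none was 2-fold lower. Nupr1 reached that level in library 2 only, so it entered the count through the side where it was higher. Chac1 and Trib3, with the largest ratios, did not reach it, and the count is a description with no test. Of all 6008 genes at that level, 1.10% were at least 2-fold higher and 0.999% at least 2-fold lower.

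Across the keratin bands the members did not move as a block. Atf4 and Ifrd1 were higher in Krt12-dominant than in Krt15-dominant cells of both libraries, Ddit4 was lower in both by its value, and Chac1, Trib3, Asns and Atf5 differed mainly in library 2. The Krt15-dominant cells held 0 Chac1 UMIs in library 1, where 3 UMIs would have been 0.831 CPM, and 8 UMIs (1.59 CPM) in library 2. In library 2 Chac1 was 9.26-fold higher (4.60 to 21.8) in the Krt12-dominant cells. Of the 8 UMIs, 4 lay in the 31 cells at shares of 0.3 to 0.4 (23.0 CPM), just inside the lower limit of the bands, and 4 in the 930 cells under 0.3 (0.823 CPM), so that ratio rests on few cells near the limit. In the 30 cells just outside it, at 0.4 to 0.5, there was 1 UMI (5.17 CPM). In library 1, with 15 against 0 UMIs, the lower bound of the ratio was 0.935, so a difference was not detectable at this depth. Trib3 was 5.88-fold higher (3.10 to 12.6) in library 2, and in library 1 its ratio was 0.565 on 13 and 6 UMIs, with an interval that included 1.

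From Krt15-dominant over mixed to Krt12-dominant cells, Atf4 stood at 128, 149.8 and 177 CPM in library 1 and at 101, 152 and 172 CPM in library 2. By its values it was higher at each step, but not every step was resolved. Mixed over Krt15-dominant cells in library 1 gave a ratio of 1.17 (0.978 to 1.39). In library 2 the intervals of mixed cells (130.4 to 177 CPM) and Krt12-dominant cells (164 to 179 CPM) overlapped. The ratio of the outer bands was 1.38 (1.25 to 1.53) and 1.70 (1.54 to 1.88). Ifrd1 had ratios of 1.23 (1.06 to 1.43) and 1.74 (1.52 to 2.01), and Asns 1.16 (0.886 to 1.54) and 2.56 (1.94 to 3.42). Ddit3 was lower in library 1, with a ratio of 0.647 (0.474 to 0.893), and its interval included 1 in library 2 (0.941, 0.693 to 1.29). The intervals of Sesn2 included 1 in both libraries (0.844, 0.511 to 1.45, and 0.996, 0.686 to 1.47). Nupr1 had the lowest ratio in library 1. In library 1 it was high in Krt15-dominant cells (45.7 CPM) and low in mixed and Krt12-dominant cells (13.5 and 12.1 CPM), a ratio of 0.264 (0.211 to 0.329). In library 2 the outer bands were level (28.6 and 29.5 CPM, ratio 1.03, 0.847 to 1.26). The summed ratio was 1.07 (0.999 to 1.14) in library 1 and 1.63 (1.54 to 1.74) in library 2. In library 2 the sum also differed by Xist, an RNA of female cells described below. Cells with a Xist UMI stood at 252 CPM in the Krt12-dominant and 218 CPM in the Krt15-dominant band. Cells without one stood at 868 and 352 CPM, so the bands were further apart in the cells without Xist. On both sides of the upper limit of the bands the values were close for Atf4: 173 CPM at shares of 0.7 to 0.8 and 156 CPM at 0.8 to 0.9 in library 1, and 164 and 147 CPM in library 2. For Chac1 in library 2 they were 2.53 CPM (1 UMI) and 16.8 CPM (13 UMIs).

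**Figure D1:**
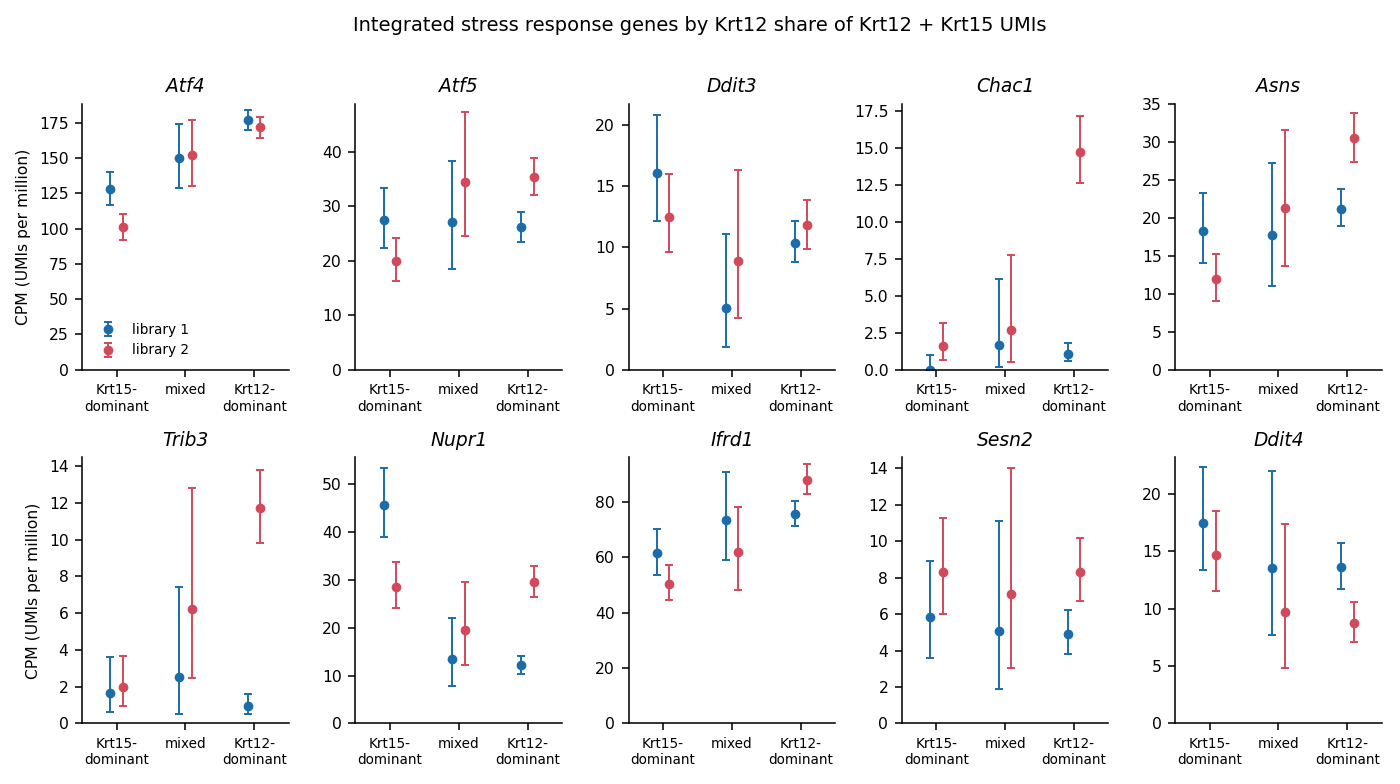
Level in CPM (vertical axis, linear, from 0, scaled for each gene) of the 10 genes by keratin band (horizontal axis) in library 1 (blue) and library 2 (red). Points are CPM over the cells, and bars are exact 95% Poisson intervals. Chac1 and Trib3 are high in the Krt12-dominant cells of library 2, at 14.7 and 11.7 CPM, and Nupr1 is high in the Krt15-dominant cells of library 1, at 45.7 CPM.

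Other genes of the pathway that are not among the 10 could be tested between the bands, since the rule did not use them. UMIs were summed for each library and band and fitted with edgeR's quasi-likelihood test with the library as a block, with p-values adjusted by Benjamini-Hochberg over 11145 genes. Of 75 listed genes 71 were tested, and 11 were higher and 14 lower in Krt12-dominant cells at an adjusted p under 0.05. Over all genes, 15.6% were higher and 16.9% lower, and the median log2 fold change was -0.01 for the list and 0.01 for all genes. The groups were not tested against each other. Of 11 genes of the eIF2alpha kinase and phosphatase arm, 2 were higher and 0 lower, and of 6 other transcription factors of the response 2 and 0. Of 8 tested amino acid transporters, 2 were higher and 4 lower, and of 11 enzymes of serine, one-carbon and transsulfuration metabolism 3 and 2. Of 12 aminoacyl-tRNA synthetases, 0 were higher and 1 was lower. Of 11 other ATF4 and CHOP targets, 1 was higher and 3 were lower, and of 12 genes of the other arms of the unfolded protein response 1 and 4.

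Slc7a1, a transporter of cationic amino acids, was higher by 1.35 (SE 0.14, log2; edgeR adjusted p = 1.16e-06), at 84.2 against 44.1 CPM in library 1 and 123 against 37.7 CPM in library 2. Ppp1r15a, whose product GADD34 brings the phosphatase back to eIF2alpha, was higher by 0.94 (SE 0.12, adjusted p = 2.12e-07), and Jdp2, a partner and repressor of ATF and AP-1 factors, by 1.05 (SE 0.12, adjusted p = 3.03e-08). Slc38a2, a transporter of neutral amino acids, Eif4ebp1, a translation repressor induced by ATF4, and Cebpb, a C/EBP partner of ATF4, were higher by 0.74, 0.62 and 0.42. In the opposite direction Herpud1, a factor of protein disposal at the endoplasmic reticulum, was lower by -1.37 (SE 0.11, adjusted p = 2.41e-11), at 34.4 against 99.7 CPM and 55.5 against 133 CPM. Wars, Slc3a2, Calr, Xbp1 and Ero1l had log2 fold changes between -0.83 and -0.48. Without the library block Slc7a1, Jdp2 and Herpud1 still passed, and the other 9 of the 12 named genes did not.

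Interferon-stimulated RNA was the next axis. Ifit3 is a gene induced by interferon. To compare cells at equal depth, each Krt12-dominant cell with at least 2000 UMIs was thinned at random to 2000 UMIs. In library 2, 134 thinned cells had an Ifit3 UMI and 1488 had none. The cells with Ifit3 carried more RNA of most members: the 10 genes summed to 802 CPM (215 UMIs) against 382 CPM (1138 UMIs), a ratio of 2.10 (1.80 to 2.43). Of the 10 genes 7 were at least 2-fold higher, where 4.73% of 9007 genes were. With cells thinned to 4000 UMIs it was 4 of the 10 genes and 3.27% of all genes, and without thinning 6 of the 10 and 2.82%. Not every gene of the 7 had an interval above equal levels. Because the members were chosen for this co-detection, these counts carry no test. Markers of conjunctival epithelium moved with Ifit3. Of 5 listed markers 4 were detected and Muc5ac was at 0, and over all Krt12-dominant cells they summed to 217 CPM with and 78.3 CPM without Ifit3 in library 2, and to 504 and 96.1 CPM in library 1. Their part in the Ifit3 contrast was not tested.

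Chac1 stood at 44.8 against 11.8 CPM in library 2 (ratio 3.81, 1.80 to 7.51), Ifrd1 at 246 against 82.7 CPM (2.98, 2.24 to 3.92), Nupr1 at 70.9 against 25.2 CPM (2.81, 1.61 to 4.70) and Asns at 59.7 against 22.5 CPM (2.65, 1.43 to 4.63). Atf4 stood at 213 against 160.3 CPM (1.33, 0.990 to 1.75), and the intervals of Ddit3, Sesn2 and Ddit4 also included 1. By their values these 4 targets were further apart than Atf4, and the intervals of Nupr1 and Asns overlapped that of Atf4. Without thinning, 323 cells with and 1498 cells without Ifit3 gave a summed ratio of 1.82 (1.72 to 1.94), with Sesn2 at 18.3 against 5.54 CPM (3.30, 2.16 to 5.02). Eif2ak2, the kinase PKR that senses double-stranded RNA and is itself interferon-induced, was at 168 against 60.1 CPM in the cells thinned to 2000 UMIs (2.79, 1.97 to 3.89). At that depth 3 of 11 genes of the eIF2alpha kinase and phosphatase arm were 2-fold higher and 1 lower, where 4.73% and 10.6% of all genes were. At 4000 UMIs and without thinning 0 of the 11 were, Eif2ak2 included. Of 12 aminoacyl-tRNA synthetases 0 were 2-fold higher at each depth. Of other ATF4 and CHOP targets it was 3 of 7 at 2000 UMIs and 0 of 9 at the other depths.

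Library 1 had few such cells. Only 35 thinned cells carried Ifit3, with 14 member UMIs among them (200 CPM) against 337 CPM in 2004 cells without, a ratio of 0.594 (0.324 to 1.00). Of the 10 genes 8 had 0 UMIs in those 35 cells, where 3 UMIs would be 42.9 CPM, so a difference in them was not detectable at this depth. Without thinning, 86 cells with Ifit3 gave a summed ratio of 1.02 (0.877 to 1.18). At 2000 UMIs, 3 or more of the 10 genes were found in 16.4% of the cells with Ifit3 and 4.44% of those without in library 2 (22 of 134 and 66 of 1488 cells), and in 0 of 35 and 0.898% in library 1.

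**Figure D2:**
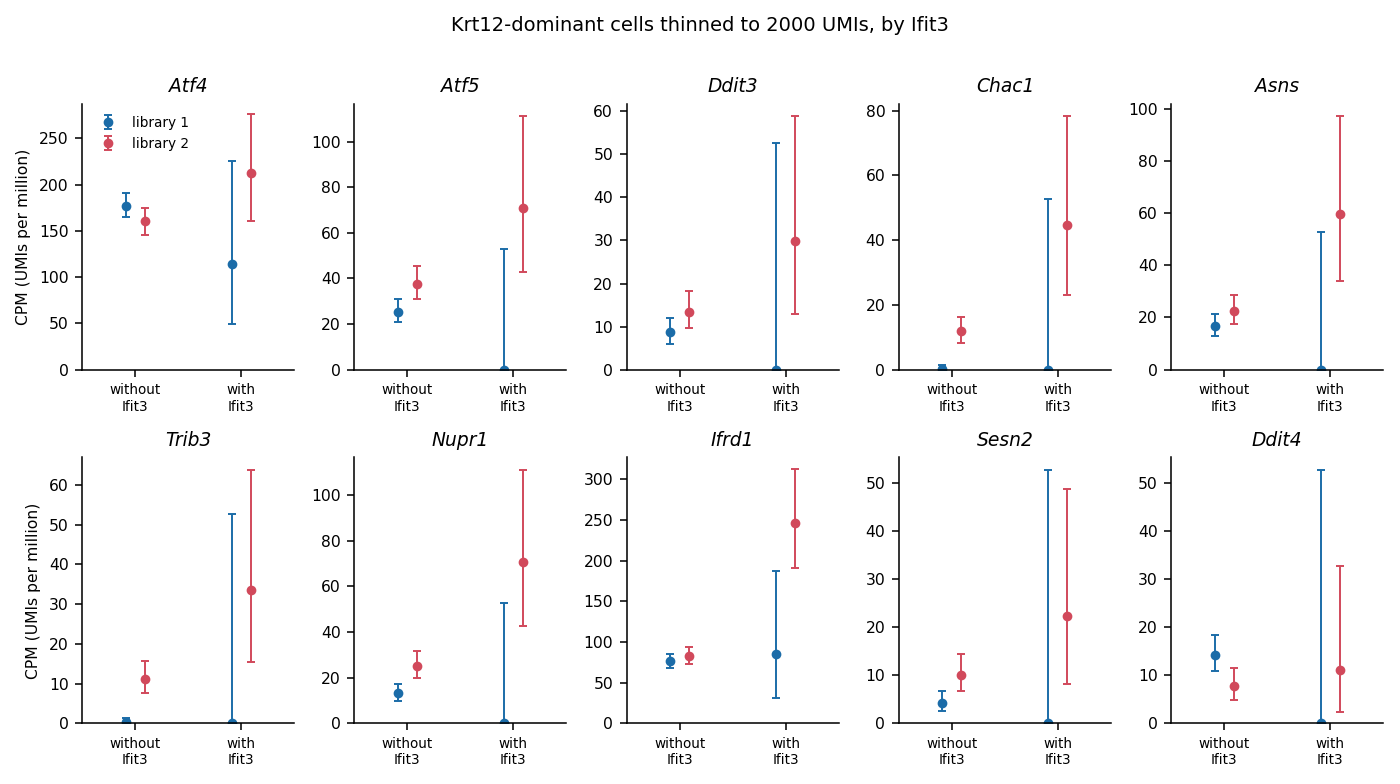
Level in CPM (vertical axis, linear, from 0, scaled for each gene) of the 10 genes in Krt12-dominant cells thinned to 2000 UMIs, without and with an Ifit3 UMI (horizontal axis), in library 1 (blue) and library 2 (red). Points are summed UMIs and bars exact 95% Poisson intervals. In library 2 the Ifit3 cells are higher for Chac1 (44.8 against 11.8 CPM) and Ifrd1 (246 against 82.7 CPM), and in library 1 the 35 Ifit3 cells leave wide intervals.

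Cells with Ifit3 in library 2 also differed in Xist, the RNA that coats the inactive X chromosome in female cells. Among Krt12-dominant cells of library 2, Xist was found in 50.8% of cells with Ifit3 (45.2 to 56.4%) and in 76.6% of cells without (74.3 to 78.7%). It was found in 21.8% of the 119 cells with Chac1 (14.8 to 30.4%) and in 75.5% of the 1702 cells without. In library 1 the shares with Xist were 75.6% with and 61.3% without Ifit3. The cells were therefore split by Xist as well. The rule does not use this comparison, but it was chosen after these shares, that of Chac1 included, were seen. Values and counts by this split are therefore a description. A cell without a Xist UMI may lack Xist RNA or have lost it to sampling. RNA of Y-linked genes (Ddx3y, Eif2s3y, Kdm5d, Uty) was found in 254 of the 510 Krt12-dominant cells without Xist in library 2 and in 55 of the 1311 cells with it.

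In library 2 the Krt12-dominant cells without Xist held most of the stress response RNA. The 10 genes summed to 868 CPM (2573 UMIs in 510 cells) against 252 CPM (2163 UMIs in 1311 cells), a ratio of 3.44 (3.25 to 3.65). In library 1 the same split gave 309 CPM (880 cells) against 363 CPM (1424 cells), a ratio of 0.851 (0.801 to 0.904). Median depth was alike within each library, with 6337 and 6387 UMIs per cell in library 2 and 5801 and 5779 in library 1. In library 2, 9 of the 10 genes were at least 2-fold higher without Xist, where 2.39% of 10845 genes were. In library 1 it was 0 of the 8 genes with enough UMIs, and 0.865% of 11102 genes. The shares of Chac1 and Ifit3 cells had led to this split, so these counts carry no test. Each library is 1 sample, so the difference between the libraries was not tested. Y-linked RNA comes from male cells and Xist from female cells, and Y-linked RNA was also found in 404 of the 880 cells without Xist in library 1, so each library held cells of more than 1 mouse. The split therefore goes largely with the sex of the mouse. Both its sides share 1 library, and sex, mouse and any handling of each mouse before the library was made cannot be told apart in it. The conjunctival markers summed to 120.4 CPM without and 105 CPM with Xist in library 2, and to 188 and 65.5 CPM in library 1. Other RNAs moved with the split in library 2: Fos, an early response gene of dissociated cells, stood at 384 CPM without and 607 CPM with Xist, and the interferon gene Rsad2 at 66.1 and 5.01 CPM.

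Nupr1 showed the widest gap, at 95.8 CPM without and 6.64 CPM with Xist in library 2 (284 and 57 UMIs, ratio 14.4, 10.8 to 19.5). In library 1 it went the other way, at 7.67 and 14.7 CPM (ratio 0.522, 0.356 to 0.750). Chac1 stood at 46.2 against 3.85 CPM in library 2 (137 and 33 UMIs, ratio 12.0, 8.16 to 18.1). In library 1 it stood at 1.15 and 1.04 CPM on 15 UMIs in all. Trib3 stood at 35.4 against 3.50 CPM in library 2 (ratio 10.1, 6.69 to 15.7) and at 0.384 and 1.27 CPM in library 1. For these 3 genes the cells of library 2 without Xist stood apart from the other 3 sets of cells, which all lay at or under 14.7 CPM.

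The remaining targets and the factors followed in smaller steps. In library 2 the ratio without over with Xist was 5.52 for Sesn2 (21.2 against 3.85 CPM), 5.45 for Asns (77.5 against 14.2 CPM), 4.01 for Ddit3 (26.6 against 6.64 CPM) and 3.62 for Ifrd1 (190.5 against 52.6 CPM). It was 2.62 for Atf5 (65.4 against 24.9 CPM) and 2.30 for Atf4 (296 against 129 CPM, 2.11 to 2.52). Ddit4 had the smallest ratio, 1.75 (12.8 against 7.34 CPM, 1.13 to 2.65). In library 1 the ratio for Atf4 was 0.839 (0.771 to 0.913) and for Ddit4 0.668 (0.477 to 0.922), both lower without Xist, and that for Ifrd1 was 0.986 (0.868 to 1.12).

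**Figure D3:**
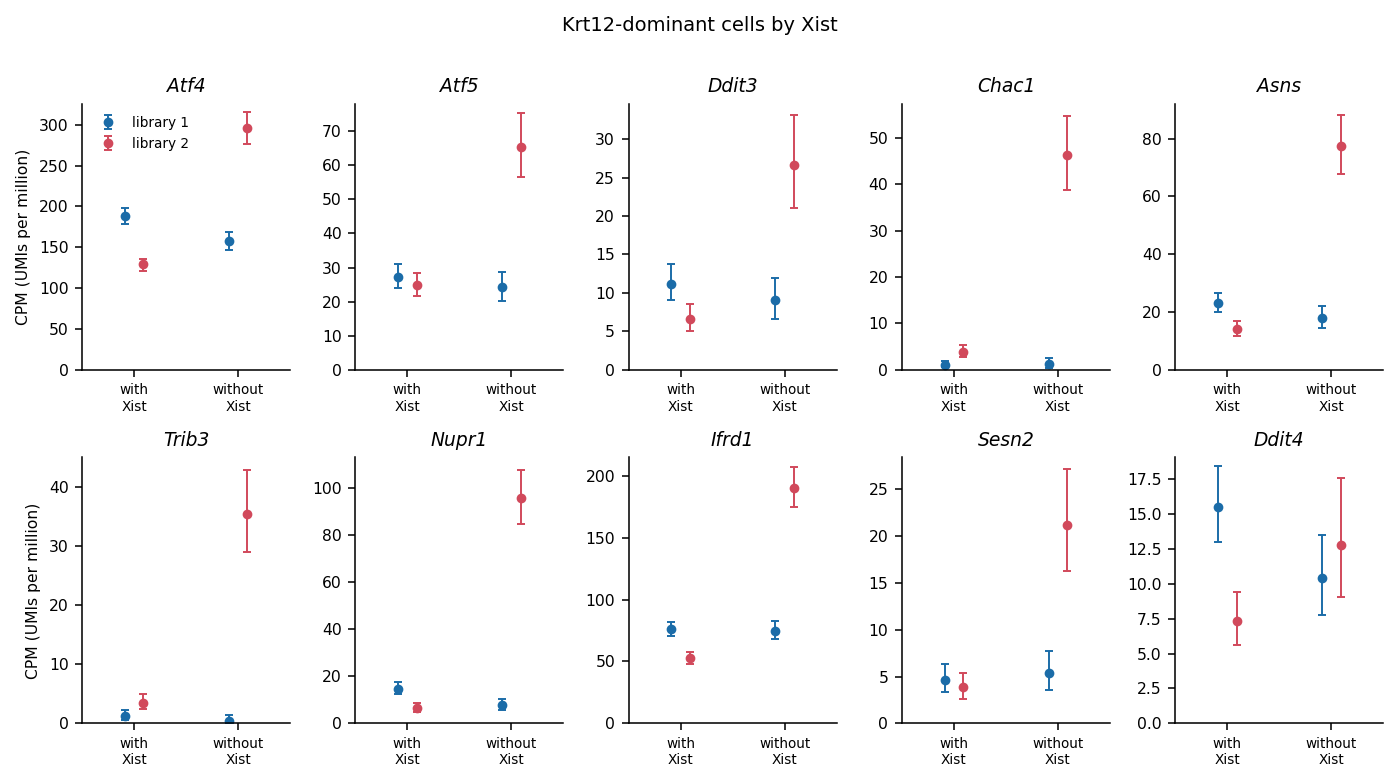
Level in CPM (vertical axis, linear, from 0, scaled for each gene) of the 10 genes in Krt12-dominant cells with and without a Xist UMI (horizontal axis), in library 1 (blue) and library 2 (red). Points are summed UMIs and bars exact 95% Poisson intervals. The library 2 cells without Xist lie above the other sets for each gene but Ddit4, as for Nupr1 at 95.8 CPM and Chac1 at 46.2 CPM.

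The cells of library 2 with Xist had less of this RNA than those of library 1. Their summed level was 252 against 363 CPM in the matching cells of library 1, a ratio of 0.694 (0.656 to 0.733), with Atf4 at 129 against 188 CPM and Nupr1 at 6.64 against 14.7 CPM. Chac1 was still higher, at 3.85 against 1.04 CPM (3.69, 1.73 to 8.77), as was Trib3 at 3.50 against 1.27 CPM (2.74, 1.34 to 6.07). Among cells without Xist the ratio of the libraries was 2.81 (2.63 to 2.99) for the sum and 40.1 (18.0 to 111) for Chac1.

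Ifit3 moved with the same split. It stood at 152 CPM without and 33.9 CPM with Xist in library 2 (4.47, 3.85 to 5.20), and at 7.67 and 9.38 CPM in library 1. When the cells were held to 1 side of the split, the Ifit3 contrast of library 2 was smaller for the sum. Without thinning, the summed ratio with over without Ifit3 was 1.31 (1.21 to 1.42) among cells without Xist and 1.45 (1.31 to 1.61) among cells with it, against 1.82 in all cells. Chac1 did not follow the sum. Its ratio was 3.04 (2.22 to 4.16) in all cells, 1.34 (0.941 to 1.90) in cells without Xist (55.1 against 41.0 CPM) and 6.01 (2.86 to 12.8) in cells with Xist (12.6 against 2.10 CPM). Conversely, in library 2 cells with no Ifit3 UMI the split by Xist was as large as in all cells: 779 against 234 CPM for the sum (3.32, 3.10 to 3.57) and 41.0 against 2.10 CPM for Chac1 (19.6, 11.2 to 36.7).

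The split was smaller in Krt15-dominant cells of library 2, with 352 CPM in 266 cells without and 218 CPM in 693 cells with Xist, a ratio of 1.61 (1.43 to 1.81). Of 8 genes with enough UMIs there 2 were at least 2-fold higher, Asns (25.3 against 7.62 CPM) and Nupr1 (46.5 against 22.8 CPM), where 1.24% of 9971 genes were. Chac1 had 7 UMIs in those without and 1 in those with Xist. Ddit3 and Sesn2 went the other way by their values, at 8.16 against 13.9 CPM and 4.90 against 9.45 CPM, with intervals that included 1. In Krt15-dominant cells of library 1 the summed ratio was 1.00 (0.892 to 1.13).

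Single cells of library 2 carried several of these RNAs at once. At 2000 UMIs, 3 or more of the 10 genes were found in 77 of 430 cells without Xist (17.9%) and in 11 of 1192 cells with it (0.923%). In library 1 the shares were 0.492% of 813 and 1.14% of 1226 cells. None of the 10 genes was found in 33.7% of the library 2 cells without Xist and in 62.4% of those with it, and at this depth a cell with none may still express them. The RNA was spread over many cells: the 10 cells with the most Chac1 held 17.1% of its UMIs in Krt12-dominant cells of library 2, and those with the most Nupr1 held 19.6%.

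**Figure D4:**
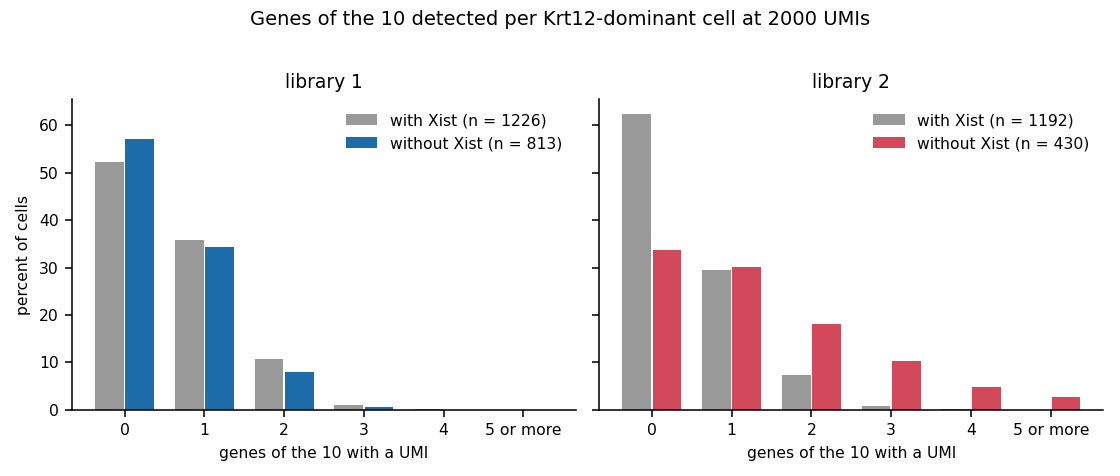
Share of Krt12-dominant cells (vertical axis, percent, from 0) by the number of the 10 genes with at least 1 UMI at 2000 UMIs per cell (horizontal axis), for cells with (grey) and without Xist (coloured) in each library. In library 2 the cells without Xist reach further right, with 17.9% at 3 or more genes against 0.923% of the cells with Xist.

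Cells with a Chac1 UMI show which members came with it. In Krt12-dominant cells of library 2, the 119 cells with Chac1 had 10.0 times the Trib3 level of the 1702 cells without (67.9 against 6.78 CPM), 8.16 times the Nupr1 level and 7.18 times the Sesn2 level. The ratio was 5.00 for Asns, 4.83 for Ddit4, 4.04 for Ifrd1, 3.52 for Ddit3, 2.86 for Atf4 and 2.01 for Atf5. The interferon genes Ifit3 and Rsad2 had ratios of 4.77 and 7.42. In library 1 the order was another one, on 13 cells with Chac1: Asns had a ratio of 7.99 (4.66 to 12.9), Ddit4 5.44 (2.31 to 11.0), Nupr1 3.78 (lower bound 1.21) and Atf4 1.83 (1.28 to 2.53). Ddit3 stood at 0.856 and Ifit3 at 1.02, each on 1 UMI, and Trib3 had 0 UMIs in those cells. Mki67, a marker of cycling cells, was lower with Chac1 in both libraries. It stood at 541 against 807 CPM in library 2 (0.670, 0.611 to 0.733) and at 410.2 against 719.5 CPM in library 1 (0.570, 0.417 to 0.761). These ratios are not corrected for depth, and cells with Chac1 were deeper (medians of 7052 and 6302 UMIs in library 2, and 9624 and 5778 in library 1). By Pearson correlation with Chac1 over 1622 thinned cells of library 2, on log values, the 8 other genes most like it were Mthfd2 (0.18), Krt6a (0.17), Eif4ebp1 (0.16), Sfn (0.15), Arl14ep (0.15), Fastkd2 (0.15), Rgs20 (0.14) and Cry1 (0.14). Among the 10 genes themselves, Nupr1 (0.20), Atf4 (0.18) and Ifrd1 (0.17) had the highest values. With 46 Chac1-positive cells these are weak values that share library and depth. In library 1 just 1 thinned cell had Chac1, so its ranking, and the mean ranking over both libraries that Il6ra and Tango6 led, rest on 1 cell.

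Other genes of the pathway were higher in the same cells of library 2, to a degree that differed by group. For cells without against with Xist, 5 of 9 tested genes among the other ATF4 and CHOP targets were at least 2-fold higher, where 2.39% of all genes were, and 6 of 12 aminoacyl-tRNA synthetases and 3 of 12 enzymes of serine, one-carbon and transsulfuration metabolism. The synthetases load amino acids onto tRNA and are a long-known set of ATF4 targets. The counts were 0 of 6 for other transcription factors of the response, 0 of 11 for the eIF2alpha kinase and phosphatase arm, 1 of 7 for amino acid transporters and 1 of 12 for the other arms of the unfolded protein response. No tested gene of the list was 2-fold lower in library 2, where 2.97% of all genes were. The median log2 ratio was 1.07, 0.93 and 0.86 for the first 3 groups, against -0.02 over all genes tested and 2.23 for the 10 genes. In library 1 the medians of the 7 groups lay between -0.48 and 0.02. There 0 genes of the list were 2-fold higher, and Ndrg1 and Vldlr, both of the ATF4 and CHOP target group, were 2-fold lower, where 1.90% of all genes were.

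Mthfd2, a mitochondrial folate enzyme, stood at 114 against 28.9 CPM in library 2 (3.94, 3.34 to 4.66) and at 23.6 and 22.9 CPM in library 1. Eif4ebp1 stood at 248 against 81.6 CPM (3.05, 2.74 to 3.38) in library 2 and at 105 and 146 CPM in library 1. Cars, the cysteinyl-tRNA synthetase, stood at 97.1 against 35.7 CPM (2.72, 2.31 to 3.21) and at 33.4 and 46.0 CPM. Vegfa, a growth factor of blood vessels that ATF4 also induces, stood at 26.6 against 7.92 CPM (3.36, 2.40 to 4.72) and at 6.33 and 9.73 CPM. Each of the 4 genes was higher without Xist in library 2 and level or lower in library 1. Ppp1r15a, the feedback phosphatase subunit, had a ratio of 1.20 (1.01 to 1.42) in library 2, and Gdf15, a secreted stress signal, had 4 UMIs there in all.

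**Figure D5:**
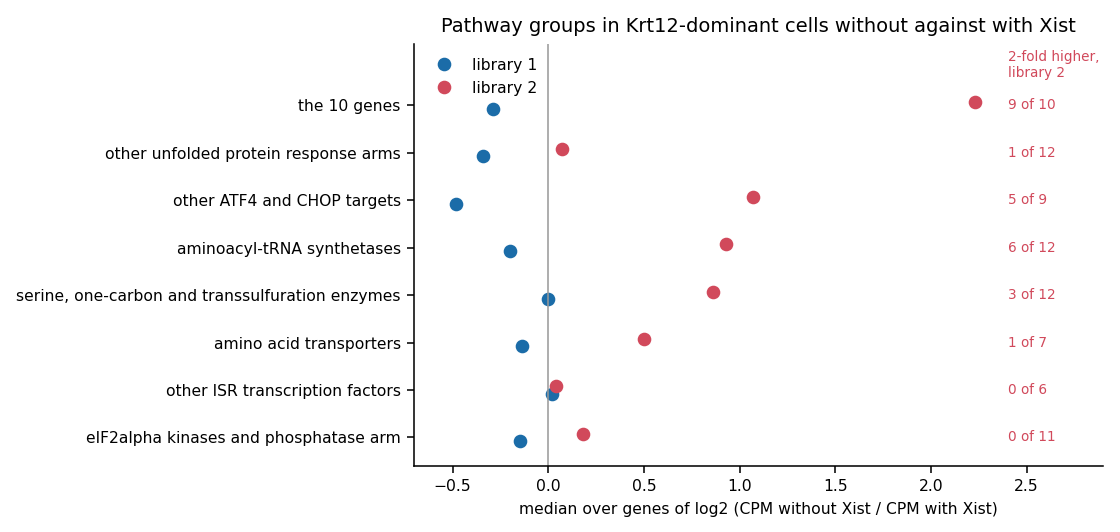
Median over genes of the log2 ratio of CPM without over with Xist (horizontal axis) for the 7 groups of other pathway genes and the 10 genes (vertical axis) in Krt12-dominant cells of library 1 (blue) and library 2 (red); the line marks equal levels, and red text counts the genes at least 2-fold higher in library 2. The groups of ATF4 targets, synthetases and serine enzymes lie at 1.07, 0.93 and 0.86 in library 2, and all groups lie at or under 0.02 in library 1.

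The summed level differed little between thinned cells with and without a Mki67 UMI. Mki67 marks cells in the cycle, and at 2000 UMIs it was found in 1397 of the 2039 thinned Krt12-dominant cells of library 1 and in 1126 of 1622 in library 2. Before thinning it was found in 86.5% and 87.5% of Krt12-dominant cells, so many cells counted as without Mki67 had lost its UMIs to thinning. The ratios below can therefore understate a difference by Mki67, and all cells had been collected by the reporter signal. The 10 genes summed to 329.6 CPM with and 344 CPM without Mki67 in library 1 (ratio 0.958, 0.854 to 1.08), and to 421 and 407 CPM in library 2 (1.03, 0.920 to 1.17). At this depth 0 of the members with enough UMIs were at least 2-fold higher or lower in either library, where 2.83% and 2.86% of genes were higher and 1.20% and 1.55% lower. At 4000 UMIs 1 of 8 members in library 1 was 2-fold lower with Mki67, where 2.39% of 10178 genes were. That was Nupr1, at 9.76 against 22.7 CPM (0.429, 0.261 to 0.729), and its ratio without thinning was 0.584 (0.377 to 0.942). Ddit4 had a ratio of 0.551 (0.334 to 0.947) in library 1 at 4000 UMIs. In library 2 at 4000 UMIs the intervals of both genes included equal levels.

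The phase within the cycle was tested with lists that hold no member. S-phase genes took 20.3% of the phase-list UMIs in library 2 cells without Xist and 21.7% in those with it. Cells rich in G2/M RNA (1564 and 1252) were compared with cells rich in S RNA, of which there were 30 and 20. With edgeR, 1.08% of 10344 genes were higher and 0.406% lower in the G2/M-rich cells. Of the 8 members tested 0 passed, and adjusted p ran from 0.532 for Nupr1 to 0.979 for Asns and Sesn2, while Nupr1 had an unadjusted p of 0.0347. DESeq2 also called 0 of them. The test had little reach: in simulated counts it recovered 9.23% of genes changed 2-fold. Of the other pathway genes 1 of 67 tested passed, Hsp90b1, a chaperone of the endoplasmic reticulum (0.64, SE 0.18, edgeR adjusted p = 0.0255). It did not pass without the library block (edgeR adjusted p = 0.361) or with DESeq2. Other limits were chosen after the data were seen: an S share of phase-list UMIs of 0.15 or less, against 0.3 or more. A cell on the S side could then hold mostly G2/M UMIs and have counted as G2/M-rich under the first limits. This gave 885 and 647 cells with the low and 782 and 621 with the higher S share in the libraries. In the cells with the low S share, 10.8% of 10609 genes were higher and 14.9% lower. Nupr1 (0.69, SE 0.17, edgeR adjusted p = 0.00261) and Ddit4 (0.64, SE 0.22, adjusted p = 0.0260) were then higher in the cells with the low S share. Ifrd1 was lower (-0.31, SE 0.10, adjusted p = 0.0184), and the other 7 members did not pass.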

How the data were processed

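UMI counts were measured in CycB1-GFP corneal epithelium cells by 10x Genomics 3' v3 single-cell RNA-seq, 1 group with 2 replicates. The authors deposited 1 matrix of raw UMI counts for 31053 genes and 6752 barcodes, written by Cell Ranger 3.1.0 per the file headers. The submitters' processing notes name GRCm38 (mm10) and Seurat 5.0.0, and whether depth was equalised between libraries is not given in the sources used here. The barcodes' ending numbers were taken as libraries, and which labelled replicate each is cannot be told from the files. No other column of sample values was present. Replicates are not stated to be separate mice, so spread between them may be technical.

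Cells with at least 500 genes and under 20% mitochondrial UMIs were kept (6188). No doublets were removed. Scrublet (scanpy 1.11.5) marked 5 cells, and whether it missed doublets was not tested. Leaving out the 186 cells with the highest scores, 3% of each library, was an alternative, and it left 125 of the 164 mixed cells in library 2. Krt12-dominant cells with both Xist and Y-linked RNA (58 and 55) had medians of 8594 and 9295 UMIs, against 5779 and 6387 in all those with Xist. Doublets among them were not tested. Member UMIs were summed per library and set of cells and divided by all UMIs of those cells (CPM). Intervals are exact Poisson for sums, Clopper-Pearson for shares and conditional binomial for ratios, at 95%, and cover counting error only. Libraries held 18773893 and 17796678 UMIs in kept cells. Over all genes, called meant a 2-fold ratio with at least 20 UMIs in both sets together, or 20 CPM in the higher library.

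Summed counts were fitted with edgeR 4.0.16 (TMM, filterByExpr, robust quasi-likelihood, library block, adjusted p under 0.05), without Krt12, Krt15 and, for phase, the 42 S and 51 G2/M list genes. The pairing comes from the cells: the sums of a library are parts of 1 sample. On simulated counts the band fit recovered 165 of 187 genes changed 2-fold with 4 false calls. Alternatives were cell filters, band and phase limits, thinning depth, DESeq2 1.42.0, no filter on low counts and no replicate block. Promoters came from RefSeq (GRCm38.p6) and gene positions from GENCODE M21.

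The members and lists were chosen with earlier results of these data known. All 10 members are named. Of other pathway genes, those past the threshold in a fit, of 1 sign in both libraries and at a mean of 20 CPM or more are named, at most 6 per direction, with the 8 genes most like Chac1. The genes named for the split by Xist were chosen after their values were seen.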

Additional observations from a re-analysis of the deposited data

How the results depend on the processing

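Of 805 values recomputed under alternatives, 641 single-gene values and 96 summary values counted as the same. A ratio did so when it stayed inside the main interval, and a mean when it stayed within the spread of the libraries. In the fits a gene had to keep its call, and a count of called genes had to stay close to the main count. A gene without a call could change sign and still count as the same. Values here are log2 ratios of the 10 summed genes unless stated. The library 2 over library 1 ratio turned from 0.09 in all kept cells to -0.12 in cells without Ifit3, and Asns in the same comparison turned to -0.03. The band ratio of library 2 was 0.71, and 0.51 in cells without Ifit3. Its mean over the libraries was 0.40, and 0.09 to 0.71 with either library left out. For Ifit3, library 2 gave 1.07, with 0.58 in cells without and 0.31 in cells with Xist, where Atf5 turned to -0.11 in the latter. Library 1 gave -0.75, with 0.18 at 4000 UMIs and 0.03 without thinning, so its sign rests on the thinning. With either library left out, the mean for Ifit3 ranged from -0.75 to 1.07 and that for Mki67 from -0.06 to 0.05, and the mean for Mki67 at 4000 UMIs was -0.13. The split by Xist in library 2 gave 1.78, with 1.67 at 2000 UMIs and 1.47 for Y-linked RNA in place of Xist. In library 1 Asns turned to 0.39 in that split at 2000 UMIs.

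The band fit called 1741 genes higher and 1884 lower, against 686 and 864 with no replicate block and 793 and 985 with DESeq2. The phase fit called 112 and 42, against 48 and 15 with no replicate block, 22 and 7 with DESeq2, and 1149 and 1577 with the wider limits added after the data were seen, under which Ifrd1 turned to -0.31. DESeq2 no longer called Cebpb, Ero1l, Wars and Xbp1 between the bands. Phase limits of 0.2 and 0.8 left 0 S-rich cells and gave no value. The cause of these shifts was not tested. Depth limits Chac1 and Trib3 in library 1, with 15 and 13 UMIs in Krt12-dominant cells.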
